A study of Danio rerio with 2 samples.

Results

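The long arm of zebrafish chromosome 4 carries many gene models that are known only by the name of the genomic clone, cDNA or contig they were found on. Here they are described in whole embryos of the AB strain at 6 hours post fertilization (6 hpf), as gastrulation begins. The groups were embryos injected with Dcp2-DN and embryos labelled control and titled mock. Dcp2 is the enzyme that cuts the cap off an mRNA before its decay. Dcp2-DN is a name used in the field for its dominant-negative form, and the title of the series speaks of Dcp2 inhibition. RNA came from pools of embryos, and libraries were made after removal of ribosomal RNA. Each group had 1 sample entry, and for each gene the deposited table gave a single FPKM value in either group (fragments mapped to a transcript, per kilobase and scaled to all mapped fragments), so no SD and no n can be given. The design text names triplicates. Whether all of them entered the authors' Cuffdiff test was not given, and where they did, the p-values may measure technical spread only.

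The rows were chosen by 3 features of the deposited table. The locus had to start at 28 Mb or later on chromosome 4 (Zv9 coordinates), the name had to begin with si:, zgc:, znf, wu:, im:, CABZ, BX, CR, CU or FP, and the mean of the 2 FPKM values had to reach 1. Of 1771 rows on this arm, 862 had such a name and 330 of these reached the minimum, out of 32571 rows in all. The other 532 named rows stayed under the minimum, 185 of them at 0 in both groups. Just inside the minimum stood si:ch211-245n8.1 with a mean of 1.01 FPKM, ZNF660 (5 of 10) with 1.02 FPKM and BX571954.1 with 1.05 FPKM. Just outside stood CU041364.1 with 0.9996 FPKM, si:dkey-265e15.2 with 0.994 FPKM and si:dkey-199k11.5 with 0.9895 FPKM. The minimum used the mean of both groups, so a row could also pass through the group in which it was higher.

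This arm is known as a heterochromatic, late-replicating part of the zebrafish genome with few counterparts of human genes. It holds expanded families of C2H2 zinc finger genes, whose products bind DNA through repeated zinc-binding loops, and of NLR genes, which encode innate immune receptors, beside arrays of small RNA genes. The cluster of miR-430, a microRNA family with a part in removing maternal transcripts, lies near its beginning. Zinc finger genes of the arm are known to be transcribed early, around the onset of zygotic transcription. Only some of the 330 rows could be tied to such a family. A name table matched 90 by gene ID, and the RefSeq table of the GRCz12tu assembly matched 38 by symbol or synonym (37 protein-coding, 1 lncRNA). Together the tables held 111 of the rows. A zinc finger (znf) symbol was given to 35 rows by the authors or by either table, 2 rows had another symbol (cct2 and KIAA0930), and the roles of the other 293 are unknown here.

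As a check of the labels, the dcp2 model ENSDARG00000089419 was at 212 FPKM in Dcp2-DN and 0.0398 FPKM in mock embryos, and the other dcp2 model, ENSDARG00000039016, was at 16.7 FPKM in Dcp2-DN and 13.9 FPKM in mock embryos. Neither was called in the authors' deposited table.

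Most of the long-arm rows were slightly higher in Dcp2-DN embryos, few were called, and none of the called ones was lower. The authors tested 311 of the 330 rows and listed 19 as NOTEST. A call means that the authors marked the row as significant, with a Cuffdiff q-value under 0.05. By that rule 27 of the 311 tested rows (8.68%) were called higher in Dcp2-DN embryos, where 20.6% of all 14810 tested rows of the authors' deposited table were. Called lower were 0 of 311, where 4.35% of all tested rows were. At an unadjusted p under 0.05 in the authors' deposited table, 57 of the 311 tested long-arm rows were higher and 2 were lower. Over all 14810 tested rows the counts were 4066 (27.5%) and 1218 (8.22%). At q under 0.01, 12 of the 311 were higher and 0 lower, against 2004 (13.5%) and 230 (1.55%) of all 14810. The authors' Cuffdiff was the only tool behind these calls. In whole embryos, a change in the number of cells that make a transcript and a change in RNA per cell cannot be told apart.

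**Figure D1:**
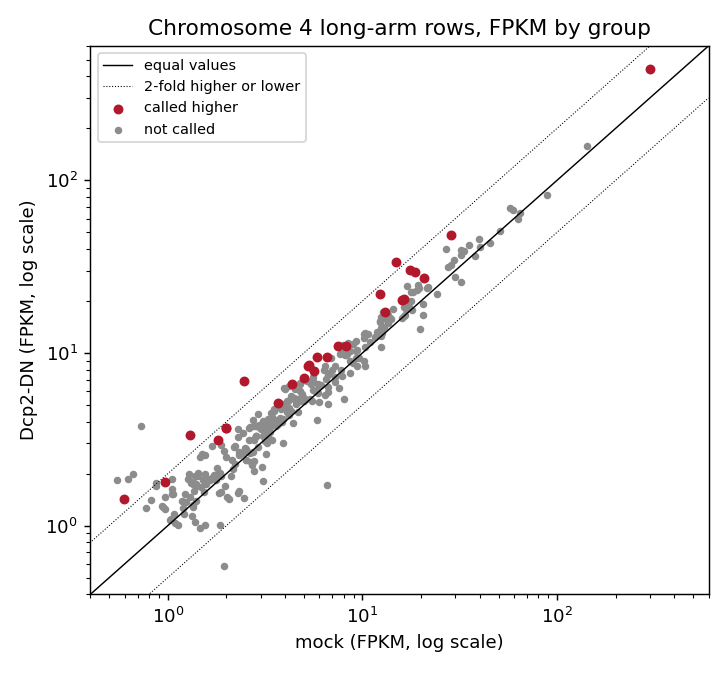
FPKM of each of the 330 long-arm rows in Dcp2-DN embryos (vertical axis, log scale) against mock embryos (horizontal axis, log scale), with the 27 rows called higher in red and the others in grey. Most points lie just above the line of equal values, and 11 of the 330 lie on or beyond the dotted 2-fold lines, 9 above and 2 below.

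The direction was shared by far more rows than the calls. In 77.9% of the 330 rows the Dcp2-DN value was above the mock value, against 62.3% of all 15457 rows whose mean reached 1 FPKM. Among the 284 tested long-arm rows without a call 218 were above and 66 below. The 62.3% of all rows includes called rows, and no matching share of all uncalled rows is given here. The median of the log2 ratios (Dcp2-DN over mock), with a pseudocount of 0.1 FPKM (which understates the change of low rows), was 0.20, against 0.12 over all 15457 rows whose mean reached 1 FPKM. As a plain ratio of FPKM values the medians were 1.15-fold over the long-arm rows and 1.09-fold over all such rows. The lower and upper quartiles of the log2 ratio were 0.03 and 0.38 for the long-arm rows, and -0.13 and 0.41 for all such rows. The lower quartile was thus above 0 on the long arm, while the upper quartiles differed little.

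Large differences were uncommon. Of the long-arm rows 86.4% stayed within 1.5-fold in both directions, against 81.0% of all rows whose mean reached 1 FPKM. Log2 ratios above 0.5 were found in 14.2% of the long-arm rows and 19.4% of all such rows, and ratios below -0.5 in 3.64% and 4.06%. At least 2-fold differences were found in 9 long-arm rows that were higher and 2 that were lower in Dcp2-DN embryos. Several of these rows had a value under 1 FPKM in their lower group, and so passed the minimum through the other group. Log2 ratios above 1 were found in 2.42% of the long-arm rows and 3.95% of all such rows, and ratios below -1 in 0.606% and 0.938%.

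The equally named rows of other chromosomes and scaffolds, 2705 with a mean of at least 1 FPKM, had less of this tilt. Their median log2 ratio was 0.11, and 61.0% of them were above mock. Among 2464 tested, 387 (15.7%) were called higher and 88 (3.57%) were called lower by the authors' deposited table. The name rule also took 176 ordinary symbols elsewhere, 97 of them znf genes and the others symbols that begin with cr, cu or fp. With names of clones, cDNAs and contigs alone in both sets, 8.61% of the long-arm rows and 15.5% of the other rows were called higher. With the other-chromosome rows weighted to the levels of the long-arm rows, their share called higher in the authors' deposited table was 14.6% and their median 0.13. For si: names alone the shares called higher were nearer, at 10.3% on the long arm and 12.9% elsewhere, while the medians were 0.19 and 0.11. These are descriptions of 1 value per gene and group, with no test of the difference.

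**Figure D2:**
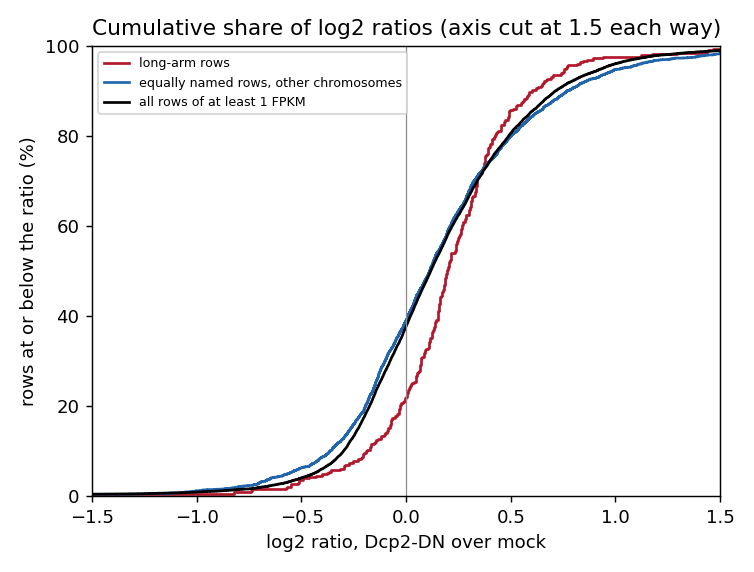
Share of rows (vertical axis, percent) at or below each log2 ratio of Dcp2-DN over mock (horizontal axis) for the 330 long-arm rows in red, the 2705 equally named rows elsewhere in blue and all 15457 rows of at least 1 FPKM in black. The red curve crosses the zero line lowest, with 77.9% of its rows above mock, and it crosses the other curves between 0.25 and 0.5. Above 0.75 lay 5.76% of the long-arm rows, 10.8% of the equally named rows elsewhere and 8.93% of all rows.

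Named rows of single chromosomes spanned a wide range. Over the 24 other chromosomes, the median log2 ratio of such rows ran between -0.12 on chromosome 7 and 0.31 on chromosome 18, so the long-arm median of 0.20 lay inside it. The share of rows above mock ran between 40.6% on chromosome 7 and 73.3% on chromosome 22, under the 77.9% of the long arm. The share called higher in the authors' deposited table ran between 9.26% on chromosome 6 and 30% on chromosome 17, above the 8.68% of the long arm. Chromosome 10 also had 0 rows called lower, of 60 tested. The 168 named rows on unplaced scaffolds had a median of 0.20, with 71.4% above mock, and the authors' deposited table called 8.44% of them higher and 4.55% lower. The 65 equally named rows of chromosome 4 below 28 Mb had a median of 0.19, with 66.2% above mock. Of 54 tested, 9 (16.7%) were called higher and 2 (3.70%) lower, against 20.6% and 4.35% of all tested rows.

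The tilt was present at each level of expression examined. In each of 5 bins of mean FPKM, 73.3% to 86.0% of the long-arm rows were above mock. Among the equally named rows elsewhere 52.3% to 69.1% were, and among all rows 52.0% to 72.0%. Medians of the log2 ratio were close to those of all rows at 2 to 5 FPKM (0.20 and 0.19), 5 to 10 FPKM (0.20 and 0.22) and 10 to 20 FPKM (0.17 and 0.18). At 1 to 2 FPKM they were 0.18 and 0.13. Weighted to the long-arm levels, all rows outside the set had a median of 0.165. The gap to the equally named rows was widest at 20 FPKM and over. There the median log2 ratio was 0.22 for 36 long-arm rows, and 0.02 both for 700 equally named rows elsewhere and for all rows. Calls on the long arm were fewest at 1 to 2 FPKM, with 2 of 58 tested, and most frequent at 20 FPKM and over, with 6 of 36. The 2 called rows at 1 to 2 FPKM had mock values under 1 FPKM and passed the minimum through their Dcp2-DN values. At 1 to 2 FPKM the authors' deposited table called 3.45% of the long-arm rows and 7.85% of the equally named rows elsewhere higher. At 2 to 5 FPKM it called 5.94% of the long-arm rows and 12.4% of those elsewhere, and at 5 to 10 FPKM 12.3% of the long-arm rows and 17.0% of those elsewhere. At 10 to 20 FPKM it called 9.30% of the long-arm rows and 22.4% of the equally named rows elsewhere higher. Of all tested rows at 1 to 2 FPKM it called 10.04% higher, and of those at 2 to 5 FPKM 17.5%. The share over all tested rows was 25.8% at 5 to 10 FPKM and 29.3% at 10 to 20 FPKM, the latter the highest of the 5 bins. At 20 FPKM and over the shares were close, at 16.7% of the long-arm rows, 17.7% of the equally named rows elsewhere and 18.4% of all rows of that level.

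**Figure D3:**
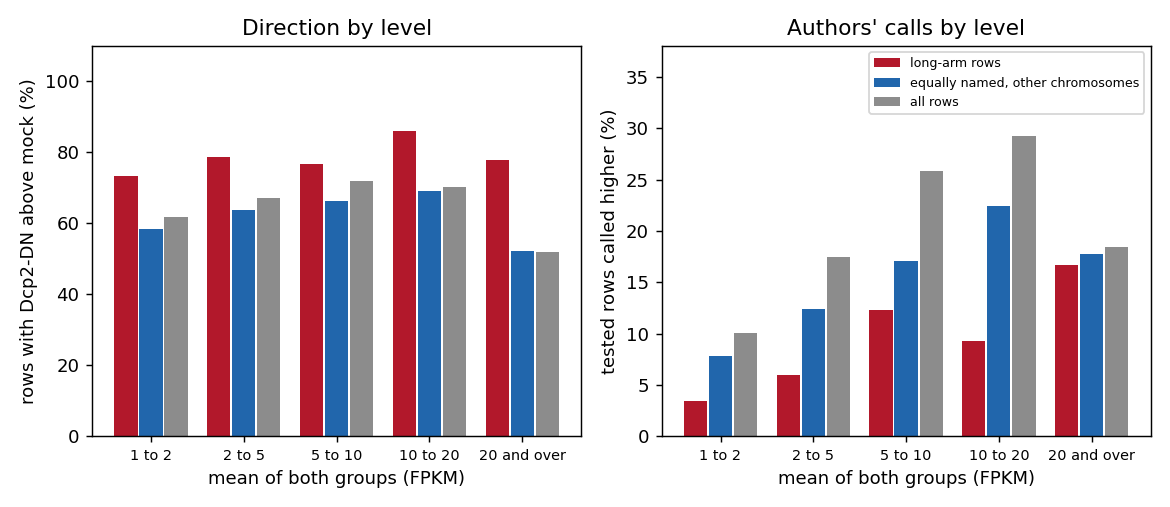
Bars from 0 by bin of mean FPKM (horizontal axis) for long-arm rows (red), equally named rows of other chromosomes (blue) and all rows (grey). The left panel gives the percent of rows with Dcp2-DN above mock, where red is the tallest bar in all 5 bins, and the right panel the percent of tested rows called higher, where red is the shortest.

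The 27 called rows spanned folds of 1.26 to 2.78, with a median of 1.60, and the q-values that the authors' deposited table gave for them ran between 0.000593 and 0.0481. Of these rows 16 were at least 1.5-fold and 4 at least 2-fold higher. Among all 3051 rows called higher in the authors' deposited table, 1762 were at least 1.5-fold higher. Over all 14810 tested rows, 1762 (11.9%) were called with such a rise and 131 (0.885%) with a fall of that size. Of the 311 tested long-arm rows, 16 were called with such a rise and 0 with such a fall. The largest called rise was that of si:dkey-146m20.13 (ENSDARG00000096151, chromosome 4, 49505517 to 49506288, Zv9), a short locus of unknown role. It was at 6.86 FPKM in Dcp2-DN and 2.47 FPKM in mock embryos, 2.78-fold higher, with q = 0.0142 in the authors' deposited table. si:dkey-199m13.8 (ENSDARG00000095031, 35655529 to 35664317) was at 3.34 FPKM in Dcp2-DN and 1.30 FPKM in mock embryos, 2.56-fold higher (q = 0.0154 in the authors' deposited table). Both stood at low levels in either group.

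BX321871.2 (ENSDARG00000093944, 55100104 to 55318087) combined a large rise with a higher level. It was at 33.7 FPKM in Dcp2-DN and 14.9 FPKM in mock embryos, 2.26-fold higher, with q = 0.00235 in the authors' deposited table. Its locus is shared with other rows, between which the authors' counting could split reads, so its value is uncertain. The same holds for si:ch211-245n8.1, at 1.42 FPKM in Dcp2-DN and 0.598 FPKM in mock embryos (2.37-fold, q = 0.0140 in the authors' deposited table). This row was also one of those just inside the level minimum, which it passed through its Dcp2-DN value.

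The next rises were smaller and came at several levels. si:dkey-220o21.2 was at 3.70 FPKM in Dcp2-DN and 1.99 FPKM in mock embryos, 1.86-fold higher. si:ch211-209p16.3, which the name table gives as the zinc finger gene znf1021, was at 3.67 FPKM in Dcp2-DN and 1.996 FPKM in mock embryos, 1.84-fold higher. si:dkey-14o6.3 was at 21.99 FPKM in Dcp2-DN and 12.3 FPKM in mock embryos, 1.78-fold higher. All 3 were called in the authors' deposited table, as was si:ch211-197f20.2, at 1.78 FPKM in Dcp2-DN and 0.970 FPKM in mock embryos (1.84-fold). The mock value of si:ch211-197f20.2 was under 1 FPKM, so this row passed the level minimum through its Dcp2-DN value.

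**Figure D4:**
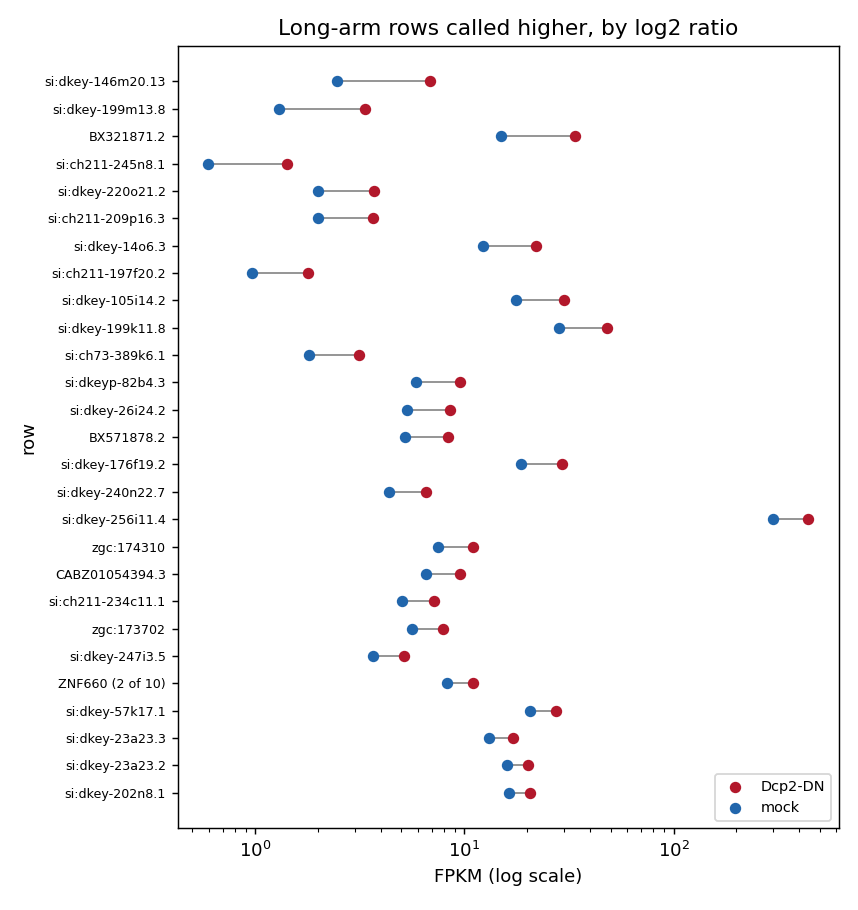
FPKM (horizontal axis, log scale) of the 27 long-arm rows called higher, in Dcp2-DN embryos (red) and mock embryos (blue), ordered by log2 ratio with the largest at the top. The red point lies right of the blue point in every row, at levels between 0.598 FPKM and 442 FPKM.

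Among the 6 rows with the highest mean, 1 was called. si:dkey-256i11.4 (ENSDARG00000096098, 51293580 to 51295977), the most abundant row of the set, was at 442 FPKM in Dcp2-DN and 300.4 FPKM in mock embryos, 1.47-fold higher, with q = 0.000593 in the authors' deposited table. Its locus is shared with a row named U1, after the small nuclear RNA of the spliceosome, which was listed at 0 in both groups as NOTEST. si:dkey-51d8.6 was at 159 FPKM in Dcp2-DN and 143 FPKM in mock embryos and was not called. CABZ01073085.1, which the name table gives as cct2, a subunit of the chaperonin that folds actin and tubulin, was at 81.7 FPKM in Dcp2-DN and 88.8 FPKM in mock embryos and was not called. It is also the last row of the region. The clone rows CR387997.1 (64.5 FPKM in Dcp2-DN, 64.6 FPKM in mock), si:ch211-209n20.57 (67.6 FPKM in Dcp2-DN, 59.4 FPKM in mock) and si:ch211-208f21.6 (69.0 FPKM in Dcp2-DN, 57.4 FPKM in mock) had no call in the authors' deposited table either. These 6 rows thus lay within 1.5-fold of mock in either direction. Among the 36 long-arm rows at 20 FPKM and over, 4 were at least 1.5-fold higher. Of those 36 rows 88.9% stayed within 1.5-fold, against 90.2% of all rows of that level.

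Among the long-arm rows, 35 had a zinc finger symbol. The authors' deposited table called 5 of the 34 tested (14.7%) higher and none (0) lower, against 20.6% and 4.35% of all tested rows. The median log2 ratio of these 35 rows was 0.24, and 80% were above mock. Besides si:ch211-209p16.3, the called rows were BX571878.2 (znf1127), at 8.36 FPKM in Dcp2-DN and 5.22 FPKM in mock embryos, and si:dkey-240n22.7 (znf1009), at 6.56 FPKM in Dcp2-DN and 4.34 FPKM in mock embryos. si:ch211-234c11.1 (znf1064) was at 7.18 FPKM in Dcp2-DN and 5.01 FPKM in mock embryos, and ZNF660 (2 of 10) (znf1068) at 11.0 FPKM in Dcp2-DN and 8.27 FPKM in mock embryos, both called. The loci of si:ch211-209p16.3, si:dkey-240n22.7 and ZNF660 (2 of 10) are shared with other rows. The 98 znf rows outside the long arm had a median of 0.17 and a lower quartile of 0.01, 77.6% of them were above mock, and 19 of 97 tested (19.6%) were called higher and 3 were called lower by the authors' deposited table.

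The 10 rows that the authors named with a znf symbol went both ways around a median of 0.13. ZNF660 (2 of 10) was the only one of them called. ZNF660 (5 of 10) was at 1.27 FPKM in Dcp2-DN and 0.772 FPKM in mock embryos, ZNF660 (4 of 10) at 1.30 FPKM in Dcp2-DN and 0.937 FPKM in mock, and ZNF660 (9 of 10) at 4.80 FPKM in Dcp2-DN and 4.04 FPKM in mock. The mock values of ZNF660 (5 of 10) and ZNF660 (4 of 10) were under 1 FPKM, so both passed the level minimum through their Dcp2-DN values. ZNF660 (3 of 10) was at 1.75 FPKM in Dcp2-DN and 1.397 FPKM in mock embryos, and ZNF324 at 7.26 FPKM in Dcp2-DN and 7.18 FPKM in mock. Those with the lower value in Dcp2-DN embryos were ZNF660 (8 of 10), at 1.56 FPKM against 1.88 FPKM in mock, ZNF814 (6 of 7), at 5.70 FPKM against 6.41 FPKM in mock, ZNF519 (1 of 2), at 1.386 FPKM against 1.397 FPKM in mock, and ZNF660 (1 of 10), the first row of the region, at 9.34 FPKM against 9.57 FPKM in mock. Copies of a family can be near-identical, so reads may have been divided among them in counting.

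The name SI:DKEY-78K22.2 was carried by 61 rows of the table, 22 of them on the long arm and 14 in the set. Of the 12 tested among these 14, 0 were called in either direction in the authors' deposited table, 1 was higher and 0 were lower at an unadjusted p under 0.05, and 78.6% of the 14 were above mock, with a median of 0.16. Over the whole table, 33 rows of this name reached 1 FPKM, with 2 of 30 tested called higher in the authors' deposited table, 81.8% above mock and a median of 0.24. The ZFP37 copies of the arm, zinc finger rows outside the name rule, had 0 of 20 tested called, 4 higher and 0 lower at an unadjusted p under 0.05, and a median of 0.15. For comparison, the authors' deposited table called 20.6% of all 14810 tested rows higher and 4.35% lower. At an unadjusted p under 0.05 the shares of all tested rows were 27.5% higher and 8.22% lower. NLR genes could not be described, because 0 long-arm rows with an nlrc or nlrp symbol reached 1 FPKM. Any NLR genes among the 293 rows of unknown role could not be recognised by name.

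Some differences without a call were larger than those with one. si:dkey-199m13.9, a 696-base locus that starts 4682 bases past the end of si:dkey-199m13.8, was at 3.76 FPKM in Dcp2-DN and 0.727 FPKM in mock embryos and was listed as NOTEST. Its mock value was under 1 FPKM, so it passed the level minimum through its Dcp2-DN value. BX323023.2 was at 2.91 FPKM in Dcp2-DN and 1.68 FPKM in mock embryos, with q = 0.0523 in the authors' deposited table, and CABZ01038376.1 at 2.58 FPKM in Dcp2-DN and 1.497 FPKM in mock, with q = 0.0831 there. In the other direction, si:dkeyp-85d8.3 was at 1.71 FPKM in Dcp2-DN and 6.5995 FPKM in mock embryos, 3.86-fold lower in value, yet with q = 0.301 in the authors' deposited table. si:dkeyp-109b10.1 was at 1.80 FPKM in Dcp2-DN and 3.08 FPKM in mock embryos, and si:dkey-285e18.1 at 5.40 FPKM in Dcp2-DN and 8.06 FPKM in mock. These last 3 loci span 726, 1008 and 799 bases. Over the 50 long-arm loci under 2 kb, log2 ratios spread between -0.66 and 0.76 (5th to 95th percentile), against -0.17 and 0.76 for the 139 loci of 10 kb or more.

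The tilt ran along the whole arm. In 8 windows cut at every 5 Mb of chromosome 4, of which the first held starts between 28 and 30 Mb alone, medians lay between 0.16 and 0.26 and 72.2% to 83.3% of the rows were above mock. Of all rows whose mean reached 1 FPKM, 62.3% were above mock. Each window held 2 to 5 of the rows called higher, and 0 of the opposite call. The share called higher ran between 4.65% and 17.6% of the tested rows of a window, against 20.6% of all tested rows. No 2 called rows were neighbours in the set, with 0 such pairs. si:dkey-23a23.3 (17.2 FPKM in Dcp2-DN, 13.1 FPKM in mock) and si:dkey-23a23.2 (20.3 FPKM in Dcp2-DN, 15.9 FPKM in mock), both called and named for the same clone, flanked CR387997.1, which was level in both groups. Within a clone the rows also differed. On si:dkey-199m13, with 5 rows, log2 ratios lay between -0.17 and 2.22, the latter for the untested si:dkey-199m13.9. On si:dkey-262g12, with 5 rows, 1 was above mock and the ratios lay between -0.82 and 0.18. On si:dkey-238o14, all 4 rows were above mock, with ratios between 0.24 and 0.46.

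**Figure D5:**
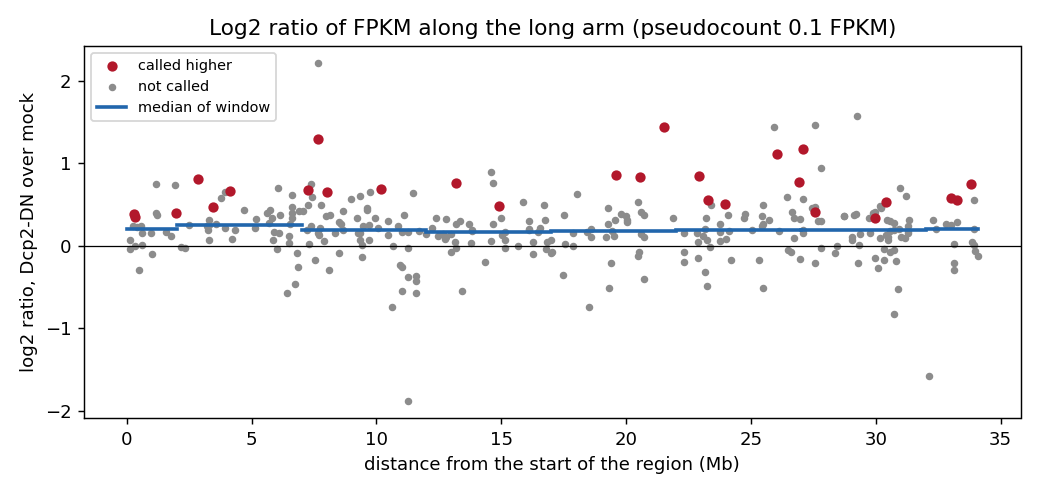
Log2 ratio of Dcp2-DN over mock (vertical axis) for each of the 330 rows by the distance of its start from the beginning of the region (horizontal axis, Mb), with called rows in red and window medians as blue lines. The blue lines stay between 0.16 and 0.26 along the arm.

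For comparison with the counts by name, 20.6% of all tested rows were called higher. Of all rows whose mean reached 1 FPKM, 62.3% were above mock. The 217 si: rows held 21 of the calls, of 203 tested (10.3%), with a median log2 ratio of 0.19. The 37 BX rows had a median of 0.33 and 89.2% above mock, with 2 of 35 tested (5.71%) called in the authors' deposited table. The 19 zgc: rows, which trace to sequenced cDNAs, had a median of 0.21 and 94.7% above mock, with 2 of 19 called. These were zgc:174310, at 11.0 FPKM in Dcp2-DN and 7.49 FPKM in mock embryos, and zgc:173702 (ENSDARG00000074032), at 7.90 FPKM in Dcp2-DN and 5.61 FPKM in mock. Another row named zgc:173702 (ENSDARG00000086922), at 3.96 FPKM in Dcp2-DN and 3.49 FPKM in mock, was not called. Of the 22 CABZ rows 1 was called, CABZ01054394.3, at 9.53 FPKM in Dcp2-DN and 6.59 FPKM in mock embryos. The 18 CR, 4 CU and 3 FP rows held 0 calls. At an unadjusted p under 0.05 in the authors' deposited table, 1 CR row was lower, and 1 CR and 1 CU row were higher. Over all tested rows 8.22% were lower and 27.5% higher at that limit. Loci shared with another row, 79 of the 330, had a median of 0.18 with 7 of 72 tested (9.72%) called. Unshared loci had a median of 0.21 with 20 of 239 tested (8.37%) called.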

How the data were processed

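Whole zebrafish embryos (AB strain) were compared at 6 hpf, 1 sample entry per group. Per the submitters' processing notes, the authors used TopHat 1.4.0 and Cuffdiff 2.1.1 with the builds Zv9 and danRer7 (the same assembly). Nothing in the sources used here gives the annotation release, library scaling or use of strand in counting. The authors deposited a single FPKM value for each gene in either group, with a Cuffdiff p-value and q-value for each gene, per the file headers. The FPKM columns were assigned from the group names in the rows (mockB, DCP2) and the sample titles. Depth is unknown, and no test of the groups was made here.

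Log2 ratios, medians and counts of the authors' calls were computed in Python 3.11.15 (pandas 2.3.3, NumPy 2.4.6, SciPy 1.17.1). The code was run on the deposited rows with changes of known size and calls put in, which checks the counting only. Figures were drawn with matplotlib 3.10.9. The rows, lists and the rule for named genes were chosen with earlier results of these data known. That rule took the 8 largest called changes per direction, the 6 highest means, the 3 largest uncalled changes per direction from a mean of 2 FPKM up, the 3 rows on each side of the minimum, the end rows and the znf symbols. The remaining rows named, among them the other called zinc finger, zgc: and CABZ rows and those of 1 clone, were named after their values were seen. Symbols came from a name table by gene ID and from RefSeq by symbol, and RefSeq coordinates were not used. Alternatives covered the level minimum, pseudocount, call rule, region start, name stems, shared loci and comparison rows.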

Additional observations from a re-analysis of the deposited data

How the results depend on the processing

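The median log2 ratio of the long-arm rows stayed positive under all alternatives tried. Most of them left little room for another sign, because a pseudocount cannot reverse a row and the other settings used largely the same rows. Centred on the median of all rows of at least 1 FPKM, the long-arm median was 0.078 instead of 0.20. The long-arm median minus that of equally named rows was 0.083 with other chromosomes, but 0.009 with chromosome 4 below 28 Mb as comparison. The count called higher in the authors' deposited table was 27 as reported, 12 at q under 0.01, 16 with a fold of at least 1.5 added and 57 at an unadjusted p under 0.05. Rows starting at 40 Mb or later held 17, but these were 205 rows instead of 330. Their share called higher minus that of equally named rows elsewhere was -6.81 percentage points. The count called lower was 0 in each of these settings except at an unadjusted p under 0.05, where it was 2. The share called higher minus that of equally named rows elsewhere was -7.02 percentage points, but -2.60 points for si: names alone and -2.07 points for si: names weighted to the long-arm levels, an alternative chosen after seeing the data. The cause was not tested. No paired analysis was possible because each group had 1 value per gene and the result comes from no test, and no replicate could be left out. Unknown depth limits how firmly rows near 1 FPKM can be read.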

Other observations

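The 81 rows of the long arm under other names, with a mean of at least 1 FPKM, had a median log2 ratio of 0.23. Of these rows 76.5% were above mock, against 62.3% of all rows of that level. Among 72 tested, 6 (8.33%) were called higher and 1 (1.39%) was called lower by the authors' deposited table. Over all tested rows the shares were 20.6% and 4.35%. The largest called rise among the 81 rows was that of gstp1, a glutathione transferase gene, at 203 FPKM in Dcp2-DN and 99.9 FPKM in mock embryos. CT990567.2 was at 55.3 FPKM in Dcp2-DN and 28.9 FPKM in mock embryos, and ptprb, a receptor tyrosine phosphatase gene, at 8.72 FPKM in Dcp2-DN and 4.58 FPKM in mock. The row called lower was CKAP4, at 9.80 FPKM in Dcp2-DN and 14.1 FPKM in mock embryos. These rows were named after their values were seen.

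Small RNA genes of the arm were mostly listed near 0. Of 52 miR-430 rows on the arm, 2 had a value above 0. mir430a-11 was at 4152 FPKM in Dcp2-DN and 3299 FPKM in mock embryos (q = 0.0659 in the authors' deposited table, not called). dre-mir-430b-4 was at 45.5 FPKM in Dcp2-DN embryos and listed at 0 in mock. It was listed as NOTEST, so the authors did not test this difference. Of 684 rows named U with a number, 4 had a mean of at least 1 FPKM.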
